A study of Homo sapiens with 14 samples.

Results

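The UBE2 genes encode ubiquitin-conjugating enzymes, and they were followed here in human aortic endothelial cells in which CALCRL, which encodes the calcitonin receptor-like receptor, was the target. Members were all entries of the authors' deposited tables whose gene symbol began with UBE2 and a further capital letter. This gave 33 genes of the 12202 listed in either table, 31 of them protein-coding and 2 of them pseudogenes (UBE2Q2P1 and UBE2Q2P6). The siRNA table listed 31 of them and the deletion table all 33. UBE2V2 is the member for which the family was singled out, because of its low value after CALCRL siRNA, so that value is described without a test.

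All 14 libraries came from teloHAEC, an endothelial line from human aorta kept dividing by telomerase. In the siRNA arm, CALCRL siRNA (4 libraries) or scrambled siRNA (4 libraries) was given by reverse transfection with a lipid reagent, and RNA was collected 24 hours later. For the deletion arm, Cas9 complexes were brought in by electroporation, with guides on both sides of an enhancer of CALCRL (3 libraries) or with a guide against HPRT as the control (3 libraries), and RNA was collected 2 days later. Both deletion groups thus received Cas9, and RNA was taken from the electroporated pool and not from clones. The labels name the siRNA products s19889 and s19890 without saying which is which, and they do not say whether libraries of a group came from separate cultures, so the p-values measure the spread between these libraries only. The libraries read the 3' ends of polyadenylated transcripts.

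The enzymes of this family take activated ubiquitin from an E1 enzyme and pass it, with an E3 ligase, to a substrate. Most carry a catalytic cysteine, and the E2 often fixes which lysine of ubiquitin is used to build a chain. UBE2N (Ubc13) builds Lys63-linked chains, which act in DNA damage tolerance and in signalling to NF-kappaB, and for this it needs a partner that resembles an E2 but has no catalytic cysteine, either UBE2V2 (MMS2) or UBE2V1. UBE2V1 had no entry under that symbol in the authors' deposited tables, so no values are given for it.

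Single libraries have no values of their own in the authors' deposited tables, so each member is described by its mean normalised count over the libraries of an arm, its log2 fold change against the control of that arm and the standard error (SE) of that change. Group means quoted below were derived from the mean and the fold change. Called means an adjusted p under 0.05 by the authors' DESeq2 Wald test. In the authors' deposited tables the median SE over all genes was 0.17 for siRNA and 0.41 for deletion, so the deletion arm was the less precise. CALCRL was at 34.0% of the control after siRNA and at 36.2% after deletion, and HPRT1, at which the control guide is aimed, stood at 94.1% of that control in the deletion arm (95% interval 47.4% to 187%). Of 11 endothelial markers, 10 were listed in both tables, among them CDH5 and VWF, and PECAM1 was not. Of these 10, 0 were called after siRNA and 2 after deletion, where 15.8% of all genes were called. The lowest mean count among them in the deletion arm was 9.78. None of 5 fibroblast and 4 leukocyte markers was listed, while ACTA2 was the 1 smooth muscle marker of 4 and KRT8 the 1 epithelial marker of 3.

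The first question was what the siRNA against CALCRL did to the family. UBE2V2 was much lower, which is why it was chosen, and none of the other members was called. UBE2V2 (ENSG00000169139) lies on the plus strand of chromosome 8 from 48008400 to 48064708 (GRCh38). Its mean normalised count in the authors' deposited table was 613, which corresponds to 866 in scrambled libraries and 361 in CALCRL siRNA libraries. The log2 fold change was -1.26 (SE 0.09), or 41.7% of the control (95% interval 36.7% to 47.3%). In bulk RNA, fewer cells of a type and less RNA per cell cannot be told apart. Over the 11261 genes of the table, 3 had a Wald statistic as low, UBE2V2 included, and 8 had a fold change as low. These ranks follow from the choice of UBE2V2 and are given as a description.

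UBE2N, the catalytic partner of UBE2V2, was not lower after siRNA. Its means in the authors' deposited table were 644 in scrambled and 710 in CALCRL siRNA libraries, a log2 fold change of 0.14 (SE 0.12, adjusted p = 0.753). This is 110% of the control (95% interval 94.2% to 129%).

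The count of called members was 1 of 31 (3.23%), against 3.46% of all genes in the siRNA table (2.42% lower and 1.05% higher). That 1 is UBE2V2, chosen for this value, so the count is no result about the family. Without UBE2V2 none of the other 30 was called by the authors' test, and 1 had an unadjusted p under 0.05. That gene was UBE2R2, a relative of CDC34 that works with cullin ligases, at 0.27 (SE 0.10, adjusted p = 0.112 in the authors' deposited table). The other 30 ranged in log2 fold change from -0.15 for UBE2D1 to 0.52 for UBE2S, with a median of 0.08 beside 0.00 over all genes, and 21 of them lay above 0. For 28 of the 30 the 95% interval excluded a change of 1.5-fold either way. The exceptions were UBE2S, with a mean of only 10.1 normalised counts, and UBE2T, whose SE was 0.39.

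**Figure D1:**
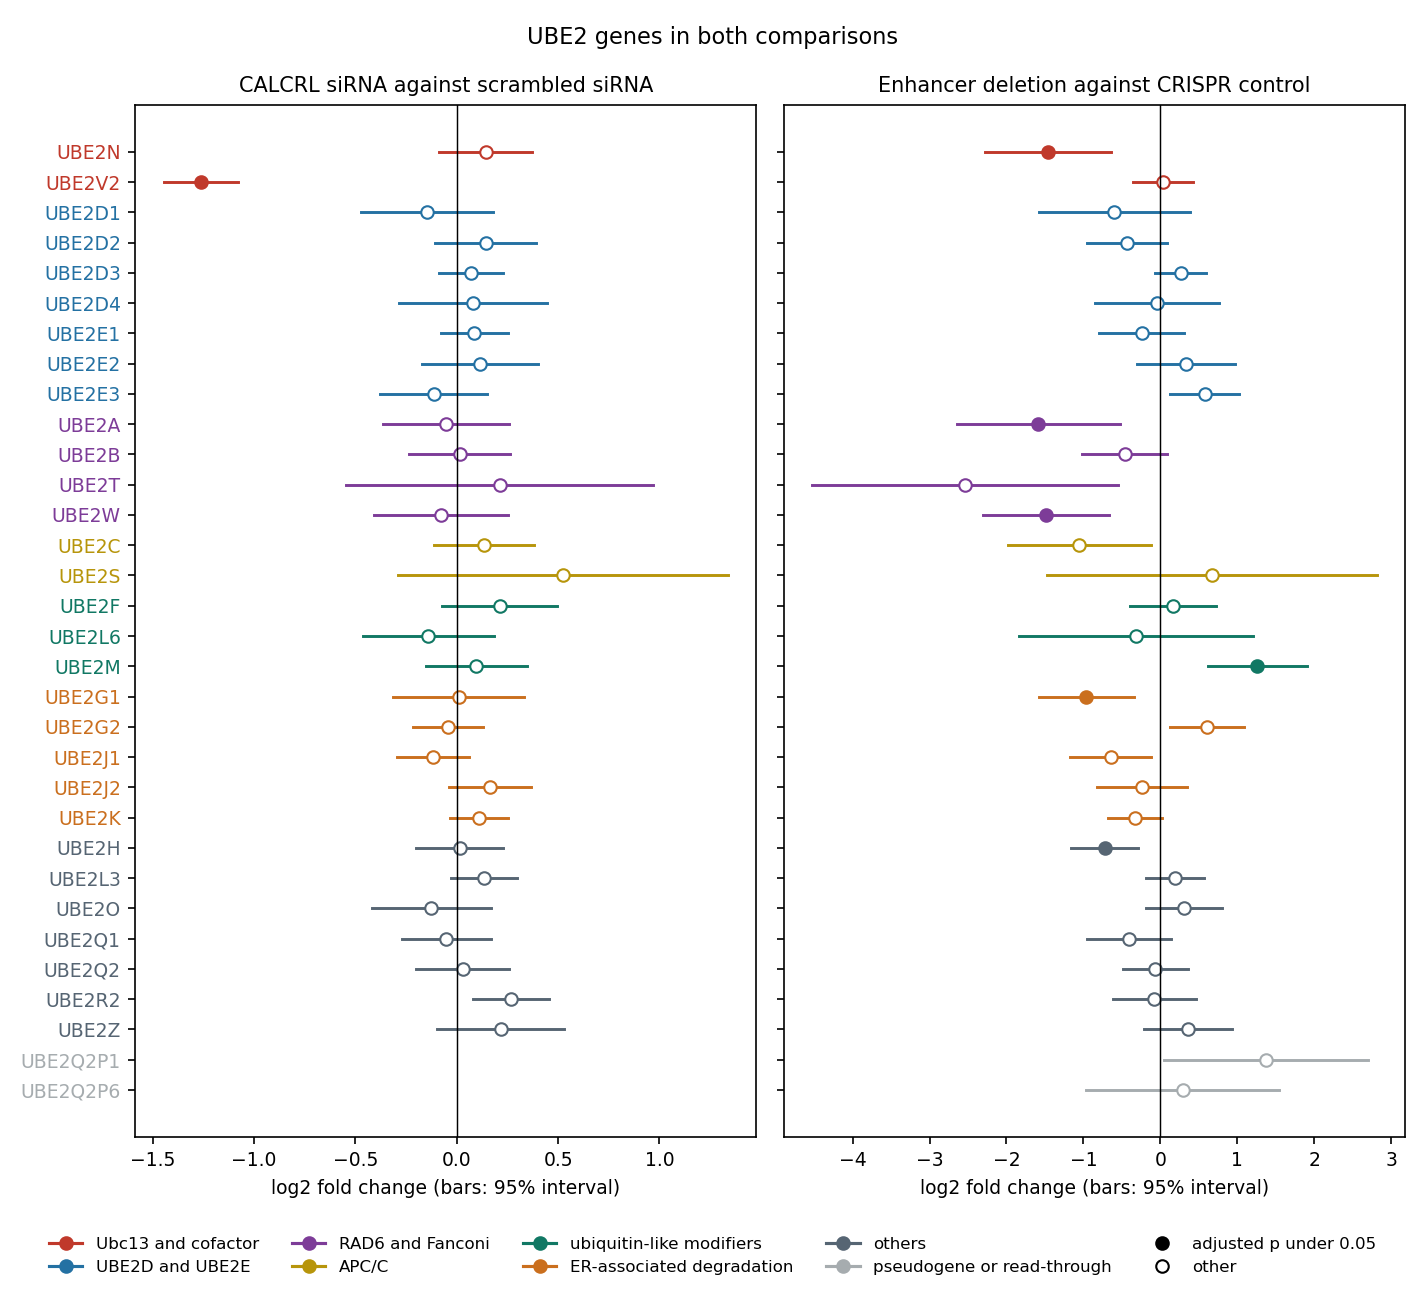
Log2 fold change of 32 UBE2 genes in the authors' deposited tables, siRNA on the left and deletion on the right, with 95% intervals as bars and filled points for an adjusted p-value under 0.05; colours mark roles, and the axes differ in range. UBE2V2 stands alone on the left at -1.26, while on the right 6 of the members plotted are filled, 5 of them below 0.

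By role, the siRNA values of the remaining members were close together. The UBE2D and UBE2E enzymes, which serve a wide range of ligases, had values in the authors' deposited table between -0.15 and 0.14. The enzymes of the RAD6 and Fanconi group act in DNA repair. Their values were -0.05 for UBE2A, 0.01 for UBE2B, -0.08 for UBE2W and 0.21 for UBE2T. Enzymes of ubiquitin-like modifiers lay between -0.14 for UBE2L6, which conjugates ISG15, and 0.21 for UBE2F, which conjugates NEDD8. Those that act in degradation at the endoplasmic reticulum lay between -0.12 for UBE2J1 and 0.16 for UBE2J2. None of these groups held a called member.

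The siRNA table held a sequence pattern, and the place of UBE2V2 in it was examined. Among 16383 words of 7 bases, genes with GTAACAA in the annotated 3' UTR had the lowest Wald statistics. The word was derived from these siRNA values, so what follows describes where members stand and tests nothing. It was searched on the transcript strand, in the protein-coding transcript with the longest 3' UTR. It was found in the 3' UTR of 1092 of 10638 genes (10.3%) and in 4 of 31 members (12.9%), namely UBE2D3, UBE2E2, UBE2N and UBE2W. Another 483 genes (4.54%) held it only in the coding part, and UBE2V2 was the only member among them. The windows below are those of the 3 carriers UBE2D3, UBE2E2 and UBE2N, shown because the word stands in their 3' UTR while none of them was called lower, and that of the siRNA target CALCRL, where it stands in the coding part. Capitals mark the word, and reference bases are from GRCh38, 5′ to 3′ along the transcript.
UBE2D3: taacttctgtaGTAACAAgggcattacca
UBE2E2: gggttattagtGTAACAAagcgtagtgga
UBE2N: tgcattgcttgGTAACAAatgttagctta
CALCRL: gtaactctgttGTAACAAtcattcacctc
They lie at chr4:102795908-102795936 on the minus strand, chr3:23591187-23591215 on the plus strand, chr12:93408298-93408326 on the minus strand and chr2:187363418-187363446 on the minus strand, in this order.

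Over all genes, the siRNA log2 fold change in the authors' deposited table had a median of -0.12 where the word was in the 3' UTR, with 14.2% called lower. Where it was only in the coding part the median was -0.11, with 29 of 483 called lower. Where it was in neither the median was 0.02, with 0.905% called lower. The members stood in another order. The 4 carriers in the 3' UTR had a median of 0.09 and none was called, with 0.07 (SE 0.08) for UBE2D3, 0.12 (SE 0.15) for UBE2E2, 0.14 (SE 0.12) for UBE2N and -0.08 (SE 0.17) for UBE2W. UBE2V2, with the word in the coding part, was at -1.26. The 26 members with the word in neither had a median of 0.08.

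The position of the word differed between UBE2V2 and the other carriers. In UBE2V2 it starts at base 302 of a transcript of 4373 bases, which is base 247 of the coding part, and 4065 bases separate it from the transcript end. It is present in all 8 annotated transcripts of UBE2V2. The UBE2V2 3' UTR of 3880 bases does not hold the word, but holds the shorter TAACAA, the lowest word of 6 bases, 3 times. In UBE2D3 the word is in 3 of 33 annotated transcripts, in UBE2E2 in 1 of 7 and in UBE2N in 1 of 6. Which transcript these cells used was not tested. UBE2W holds the word in all 7, but this counts a site in the coding part, at base 492. Its site in the 3' UTR, at base 7350, is part of GTAACAAA, which is in 1 of the 7.

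**Figure D2:**
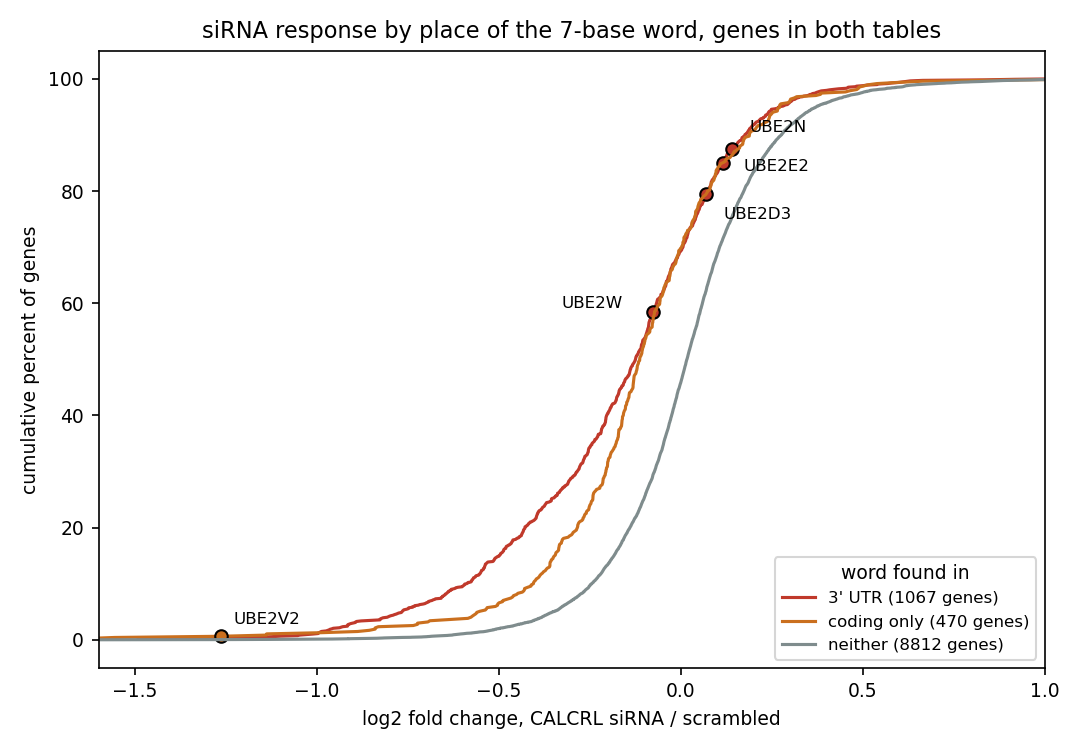
Cumulative percent of genes against the siRNA log2 fold change in the authors' deposited table, for genes in both tables with the 7-base word in the 3' UTR (1067 genes), in the coding part only (470 genes) or in neither; labelled points are the UBE2 genes that hold it. UBE2V2 is at the low end of the coding curve at -1.26, and the 4 members with the word in the 3' UTR lie between -0.08 and 0.14.

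The genes most like UBE2V2 in both arms were sought among 1869 genes whose mean normalised count was within 2-fold of that of UBE2V2 in both tables. The measure was the Euclidean distance over the 2 log2 fold changes. The nearest was SSR1 at a distance of 0.256, with -1.49 after siRNA and 0.15 after deletion in the authors' deposited tables. CNRIP1 (-0.84 and 0.10), RNF7 (-0.77 and 0.02), CAV2 (-0.82 and -0.19) and SNTB2 (-0.78 and 0.16) followed at distances from 0.432 upwards. SSR1, RNF7, CAV2 and SNTB2 held the 7-base word in the 3' UTR and CNRIP1 did not hold it in either place, where 10.3% of all genes hold it in the 3' UTR. These genes were picked for low siRNA values and the word was derived from the same values, so the count follows from the choice and is given as a description. RNF7 encodes the RING subunit that works with UBE2F and CUL5.

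The second question was what deletion of the enhancer did to the family. UBE2V2 was not lower, and its partner UBE2N was. For UBE2V2 the means in the authors' deposited table were 792 in the HPRT control and 811 after deletion, a log2 fold change of 0.03 (SE 0.20, adjusted p = 0.934). This is 102% of the control (95% interval 77.9% to 135%). UBE2N (ENSG00000177889, chromosome 12, minus strand, 93405673 to 93442262) had means of 880 in the control and 320 after deletion. Its log2 fold change in the authors' deposited table was -1.46 (SE 0.42, adjusted p = 0.00780), or 36.3% of the control (95% interval 20.6% to 63.9%). The SE of UBE2N in this arm was 1.59 times that of genes with a like mean count. Its adjusted p-value over the 6 alternatives ranged from 0.00654 to 0.975. NUDT4 lies on the opposite strand over part of UBE2N, and whether counting used the strand is not given in the sources used here.

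In all, 7 of 33 members were called in the deletion comparison (21.2%), against 15.8% of all genes in that table. Of the 7, 6 were lower and 1 higher, where the background was 8.44% lower and 7.4% higher. The median over the 33 was -0.24 beside 0.00 over all genes. The 7 calls rest on the normal reference of the Wald test. With a Student t reference of 4 degrees of freedom none of the members was called, and 7 had an unadjusted p under 0.05. With the statistics divided by their robust SD of 1.88 over all genes none was called, and 1 had an unadjusted p under 0.05. Under both settings 0 genes of the whole table were called, against 1874 in the main test, so this loss is not particular to the members. The intervals were wide, and for 3 of the 33, UBE2V2 included, they excluded a change of 1.5-fold either way.

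UBE2M was the 1 member that rose. It conjugates NEDD8 to cullins and lies on chromosome 19 (minus strand, 58555712 to 58558960). Its means were 254 in the control and 606 after deletion, and its log2 fold change in the authors' deposited table was 1.26 (SE 0.33, adjusted p = 0.00347). UBE2M also had the highest GC content of the family in the 500 bases at the transcript's end, 60.8%. With the trend of fold change on GC content removed it stood at 0.69 and lost the call (adjusted p = 0.150), and its adjusted p-value over the 6 alternatives ranged from 0.00286 to 0.975. UBE2F, the other E2 of NEDD8, was at 0.16 (SE 0.29) and UBE2L6 at -0.32 (SE 0.78), and neither passed the test.

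The RAD6 and Fanconi group held 2 of the 6 lower members, and the median of its 4 genes was -1.54. Only these 2 of the 4 passed the test. Over all genes, 8.44% were called lower, 5881 of 11835 lay below 0 and the median was 0.00, and nothing particular to so small a group is read from its values. UBE2W attaches ubiquitin to the amino terminus of proteins. It had means of 144 and 51.4 and a log2 fold change of -1.49 (SE 0.42, adjusted p = 0.00664) in the authors' deposited table. UBE2A, a RAD6 homologue that with RAD18 marks PCNA, had means of 429 and 143, at -1.59 (SE 0.54, adjusted p = 0.0287). UBE2A lies on the X chromosome from 119574467 to 119591083 with NKRF on the opposite strand over part of it. UBE2B, the other RAD6 homologue, was at -0.46 (SE 0.28, adjusted p = 0.260). With the GC trend removed the adjusted p-value of UBE2A was 0.0743, and over its 6 alternatives it ranged from 0.0243 to 0.975.

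UBE2T, which works with FANCL in repair of DNA cross-links, had the lowest value of the family and did not pass the test. Its means were 242 in the control and 41.6 after deletion, and its log2 fold change in the authors' deposited table was -2.54 (SE 1.01, adjusted p = 0.0666). The SE of UBE2T was 2.58 times that of genes with a like mean count in the siRNA table and 2.69 times in the deletion table. It was the only member with a siRNA ratio over 2, against 214 of 10891 genes (1.96%). Of those 214 genes, 206 lay below 0 in the deletion table and 145 were called lower, with a median of -2.01. A gene with such a ratio varied more between libraries of the siRNA arm than its count accounts for, and the part of this in the deletion values was not tested.

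**Figure D3:**
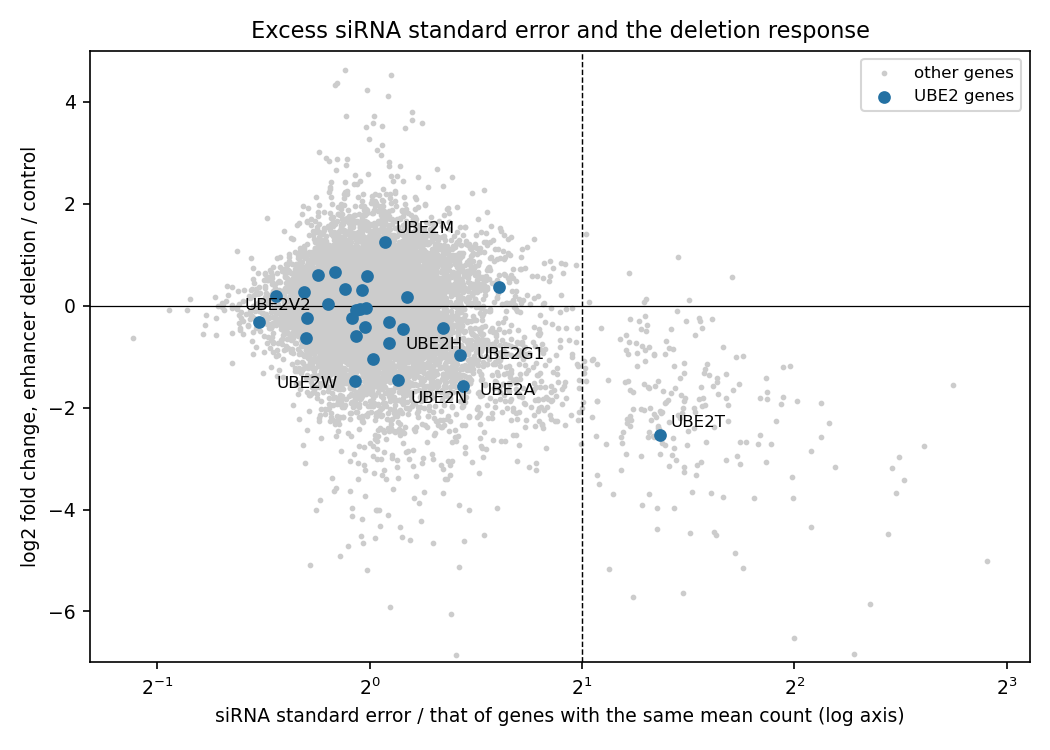
Deletion log2 fold change in the authors' deposited table against the siRNA standard error relative to genes of the same mean count, on a log axis, for 10890 genes with a value in both tables; the dashed line marks a ratio of 2. UBE2T is the 1 UBE2 gene to the right of the line, at -2.54, and the called members lie to its left.

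Among E2s of degradation at the endoplasmic reticulum, UBE2G1 fell and its relative UBE2G2 did not pass the test. UBE2G1 had means of 446 and 229, at -0.96 (SE 0.31, adjusted p = 0.0224) in the authors' deposited table. It lies on chromosome 17 (minus strand, 4269259 to 4366628). UBE2G2 was at 0.61 (SE 0.25, adjusted p = 0.0701). The membrane-anchored UBE2J1 and UBE2J2 were at -0.64 (SE 0.27) and -0.24 (SE 0.30), and UBE2K was at -0.33 (SE 0.18). With the GC trend removed UBE2G1 had an adjusted p-value of 0.0657, within a range from 0.0189 to 0.975 over its 6 alternatives.

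UBE2H, the E2 of the CTLH ligase complex, fell from 1005 to 607, at -0.73 (SE 0.22, adjusted p = 0.0142) in the authors' deposited table. It lies on chromosome 7 (minus strand, 129830732 to 129952949). No other member of its mixed group was called. The values there ran from -0.41 for UBE2Q1 to 0.36 for UBE2Z, which takes ubiquitin from UBA6. UBE2L3, an E2 of HECT and RING-between-RING ligases, was at 0.19 (SE 0.19).

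None of the 7 UBE2D and UBE2E genes was called after deletion. In the authors' deposited table UBE2D1 was at -0.60 (SE 0.50), UBE2D2 at -0.43 (SE 0.27), UBE2D3 at 0.26 (SE 0.17) and UBE2D4 at -0.04 (SE 0.41). UBE2E1 was at -0.24 (SE 0.28), UBE2E2 at 0.33 (SE 0.32) and UBE2E3 at 0.58 (SE 0.23, adjusted p = 0.0666). The last bases of UBE2D1 had the lowest GC content of the family, 25.6%. With the GC trend removed UBE2D3 and UBE2E3 passed the threshold, with adjusted p-values of 0.0432 and 0.0125. Their adjusted p-values over the 6 alternatives reached 0.994 for UBE2D3 and 0.975 for UBE2E3. The members called with the GC trend removed were 6, of which 2 higher and 4 lower. Over all genes 1406 were then called, 599 higher and 807 lower, against 1874 in the main test.

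The E2s of the anaphase-promoting complex, UBE2C and UBE2S, start and extend its ubiquitin chains. UBE2C was at -1.05 (SE 0.47, adjusted p = 0.110) in the authors' deposited table, from a mean of 464 to 224. UBE2S, with the lowest mean count of the family, was at 0.66 (SE 1.09). The pseudogenes UBE2Q2P1 and UBE2Q2P6 were at 1.37 (SE 0.67, adjusted p = 0.149) and 0.29 (SE 0.64). They resemble UBE2Q2, at -0.07 (SE 0.22), so reads could have been split among the 3 and their values are uncertain.

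GC content ran with the deletion values over the whole table. Spearman's rho between the deletion log2 fold change and the GC content of the last 500 bases was 0.309 over 11630 genes and 0.256 over the 33 members. For siRNA the values were 0.0803 over 11099 genes and 0.355 over 31 members. These are correlations across genes measured in the same libraries and are given as descriptions. UBE2V2 had a GC content of 29.4%.

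The third comparison set the arms against each other. The difference between the siRNA and deletion log2 fold changes was tested for each of 10891 genes using their standard errors and a normal reference. In all, 1493 genes (13.7%) were called. Of 31 members 8 were called. UBE2V2 had a difference, siRNA minus deletion, of -1.30 (SE 0.22), which contains the value it was chosen for. UBE2M was the other member with a negative difference, at -1.16 (SE 0.35, adjusted p = 0.0153). The 6 with positive differences were the 6 lower ones of the deletion table, from 0.74 (SE 0.25) for UBE2H to 1.60 (SE 0.43, adjusted p = 0.00588) for UBE2N. Background percentages were 6.49% for a lower siRNA value and 7.22% for a higher one. The arms also differ in delivery, time and control treatment, which cannot be told apart from the target. With a Student t reference or robust scaling none of the 8 remained called, and 9 and 3 members respectively had an unadjusted p under 0.05. Of the 10891 genes, 0 were called under either setting.

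**Figure D4:**
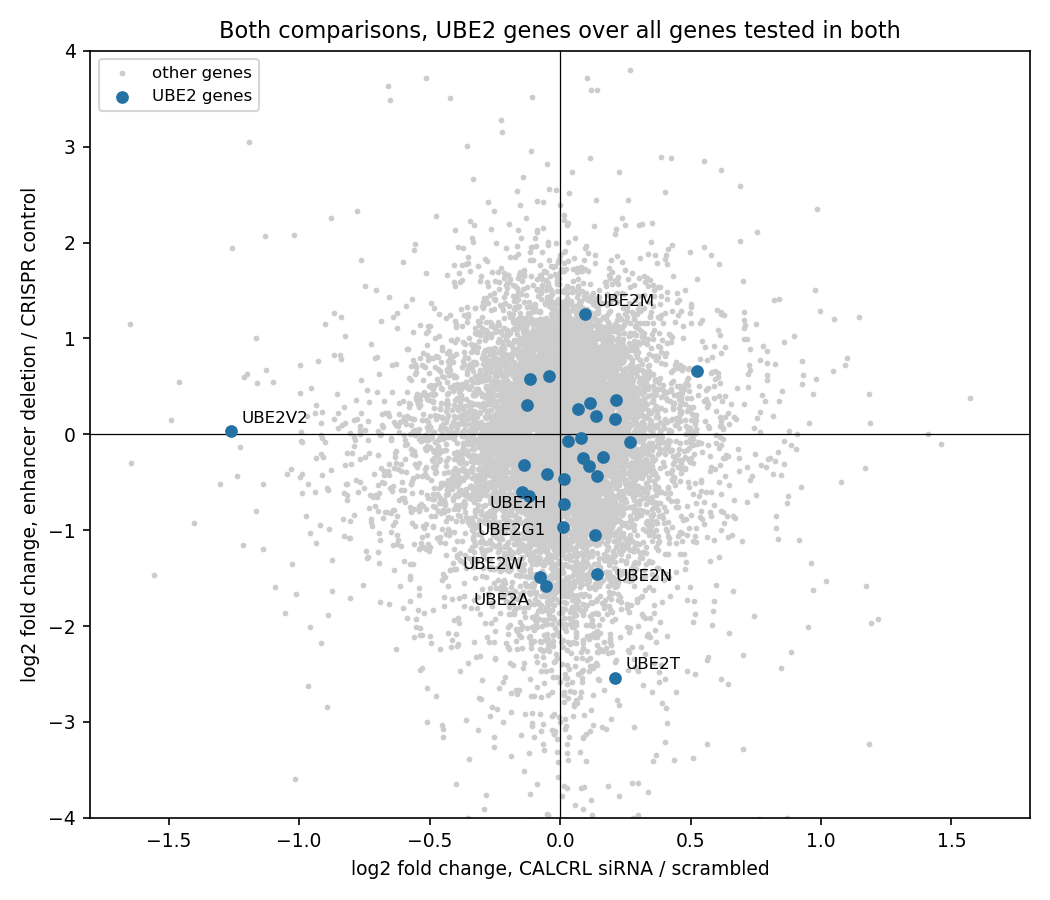
Log2 fold change after enhancer deletion against that after CALCRL siRNA in the authors' deposited tables, for 10890 genes tested in both (54 lie outside the axes), with UBE2 genes in blue and names for 7 of those whose arms differed and for UBE2T. UBE2V2 lies far to the left on the horizontal line, at -1.26 and 0.03, while UBE2N lies low and near the vertical line, at 0.14 and -1.46.

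Genes that work with the family were taken from a list of 91 symbols, of which MARCH6 and MARCHF6 name the same gene. It held E1 enzymes, ubiquitin and modifier genes, other E2s, ligases with their cofactors, readers and erasers, and 86 were listed. The list was drawn up with earlier results of these data known. The shares called among partners, here and after deletion, are therefore descriptions. After siRNA 9 of the 86 were called (10.5%, beside 3.46% of all genes), all of them lower, and the median was -0.05. With a Student t reference none was called, and 9 had an unadjusted p under 0.05. Over all genes 5 were called with that reference, against 390 in the main test. Of the 26 genes listed under Lys63-linked chains, 5 were lower, and not all of the 26 act with UBE2N. BIRC3, a ligase of NF-kappaB signalling, was at -0.82 (SE 0.10, adjusted p = 9.15e-13 in the authors' deposited table). Its relatives BIRC2 and XIAP were at -0.38 (SE 0.08, adjusted p = 0.000209) and -0.42 (SE 0.11, adjusted p = 0.00782). RAD18, the ligase that acts with UBE2A and UBE2B on PCNA, was at -0.74 (SE 0.17, adjusted p = 0.00122). MAP3K7 (TAK1), the kinase whose adaptors read Lys63-linked chains, was at -0.56 (SE 0.15, adjusted p = 0.00832).

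Outside that group 4 partners were lower after siRNA. RNF7 was at -0.77 (SE 0.12, adjusted p = 2.80e-08) and MDM2, the ligase of p53, at -0.56 (SE 0.07, adjusted p = 1.01e-12) in the authors' deposited table. RANBP2, a nuclear pore protein with SUMO ligase activity, was at -0.37 (SE 0.10, adjusted p = 0.0132). ISG15, the modifier conjugated by UBE2L6, was at -0.68 (SE 0.17, adjusted p = 0.00296). The 7-base word was in the 3' UTR of 10 partners, of which XIAP, RNF7 and MDM2 were among the 9 lower. It was only in the coding part of another 10, of which BIRC3, RAD18, MAP3K7 and RANBP2 were lower. Of the 66 with it in neither, ISG15 and BIRC2 were lower. As for the members, the word was derived from these values, and these counts are descriptions.

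**Figure D5:**
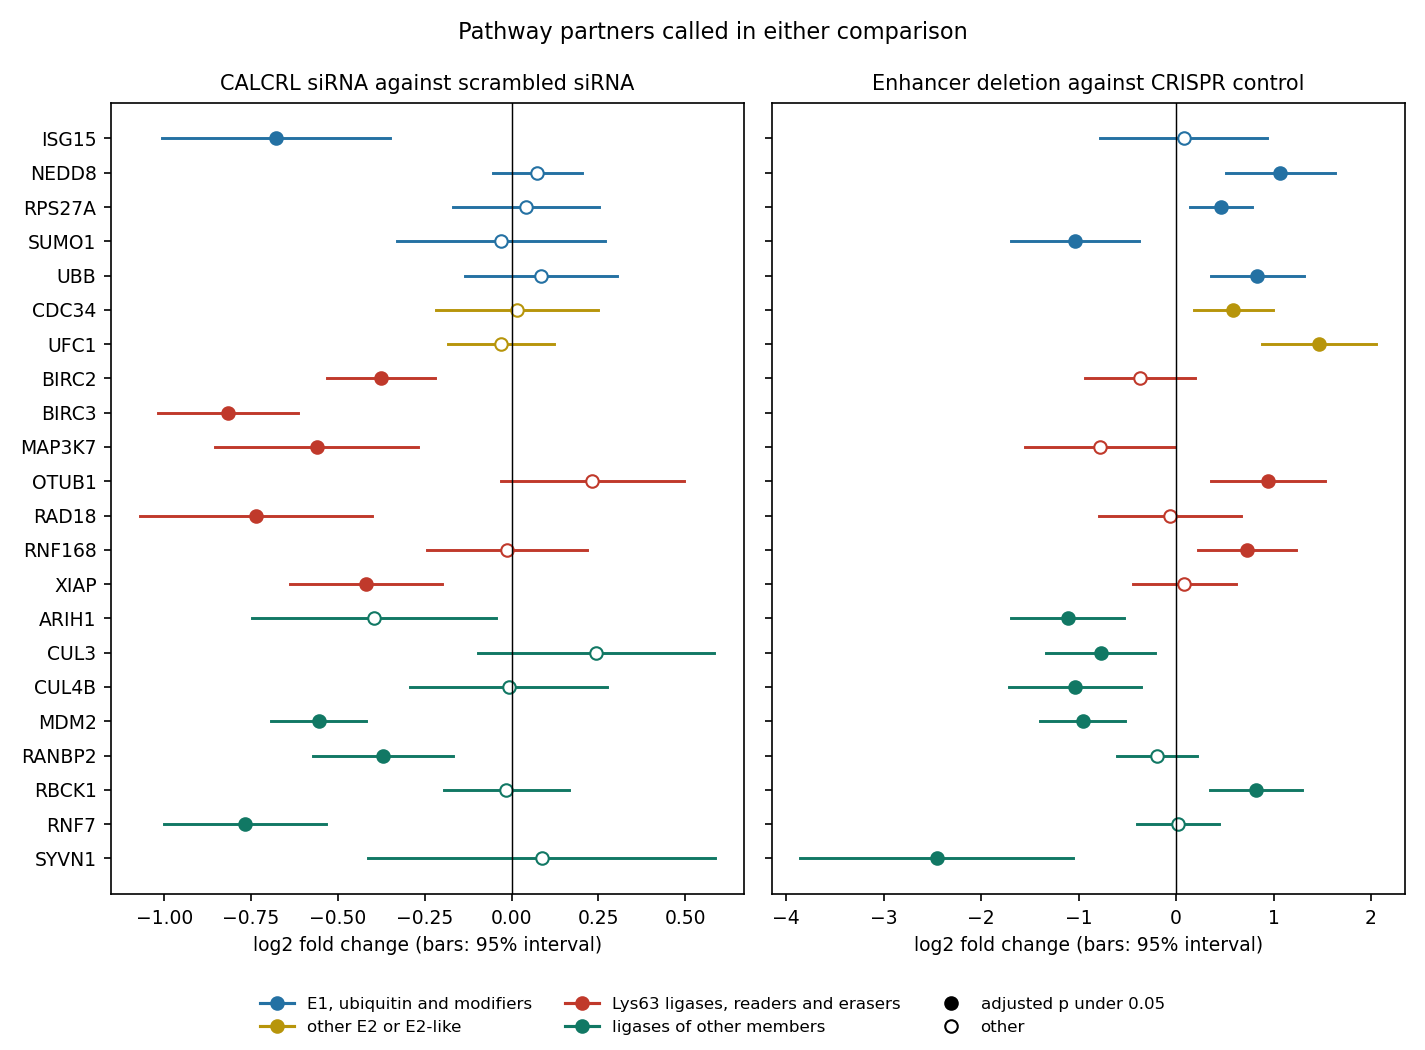
Log2 fold change of partners called in either comparison, from the authors' deposited tables, with 95% intervals as bars, filled points for an adjusted p-value under 0.05 and colours for their group; the axes differ in range. All 9 filled points on the left lie below 0, and on the right 8 of those plotted lie above and 6 below.

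After deletion 17 of 83 partners were called (20.5%, beside 15.8% of all genes), 10 higher and 7 lower, with a median of 0.03. With a Student t reference or robust scaling none was called, and 16 and 5 respectively had an unadjusted p under 0.05. Over all genes 0 were called under these settings. With the GC trend removed 12 partners were called, 7 higher and 5 lower, and 1406 of all genes. UBB, a gene of ubiquitin itself, was among the higher ones, at 0.84 (SE 0.24, adjusted p = 0.00970) in the authors' deposited table. NEDD8, the modifier that UBE2M conjugates, was at 1.07 (SE 0.29, adjusted p = 0.00440), in the same direction as UBE2M. UFC1, the E2 of the modifier UFM1, had the lowest adjusted p-value of the partners, at 1.46 (SE 0.30, adjusted p = 0.000109).

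Of the 33 listed ligases, ligase subunits and cofactors grouped with members other than UBE2N, 6 fell and 1 rose (21.2%). Over all genes 15.8% were called, 8.44% lower and 7.4% higher. SYVN1, a ligase of degradation at the endoplasmic reticulum, was at -2.45 (SE 0.71, adjusted p = 0.00937) in the authors' deposited table. ARIH1, which receives ubiquitin from UBE2L3, was at -1.11 (SE 0.29, adjusted p = 0.00406), and MDM2 at -0.96 (SE 0.22, adjusted p = 0.000910). RBCK1, a subunit of the complex that makes linear ubiquitin chains, rose, at 0.82 (SE 0.24, adjusted p = 0.00985). Among the 25 genes of Lys63-linked chains 2 were called, both higher, a share below the 15.8% of all genes called in either direction and near the 7.4% called higher. One was OTUB1, a deubiquitinase that also binds and inhibits UBE2N, at 0.94 (SE 0.30, adjusted p = 0.0173) beside the lower UBE2N. MDM2 was called lower in both arms, where 47 of the 10891 genes tested in both were called in both, in either direction.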

How the data were processed

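RNA of 14 teloHAEC libraries was measured by 3' mRNA sequencing (single-end, 86 cycles), per the labels' protocols. For each arm the authors deposited 1 table of a DESeq2 comparison, per the file names and headers. Per the file headers, each gene has a mean normalised count and a log2 fold change with its standard error. The deposited p-values belong to a Wald score, and adjusted ones stand beside them. The submitters' processing notes name the build hg19 and edgeR 3.24.3, with no role given. The aligner and strand setting are not given in the sources used here. Decimal commas were read as points. The adjusted p-values equalled a Benjamini-Hochberg adjustment over the table. Depth per library is unknown, and no check for outlying or duplicated libraries was possible. Only the precision in the deposited standard errors is given.

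Groups came from the sample titles. Intervals of 95% used the normal quantile. Arm differences were tested from both fold changes and standard errors, adjusted over 10891 genes. GC content, positions and words were taken from GENCODE 29 (GRCh38), not the authors' build, by gene ID (11099 and 11630 genes). Excess standard error was taken relative to a lowess fit on the mean count (span 0.2), and the GC trend was removed with span 0.3 (statsmodels 0.14.6, Python 3.11.15). The test of arm differences and the word search were tried on simulated data, and these 2 fits were not. The 6 alternatives were a Student t reference, robust scaling, a mean of at least 30, genes in both tables, GC trend removal and median centring. Members are named by role; 1 member and 3 partners counted above are not reported here by name. Partners were named if called with a mean of at least 30, at most 10 per table by adjusted p-value, and the 5 nearest genes by distance. Members and lists were chosen with earlier results of these data known. Count models had been planned if counts per library were held, and the authors' tests were used instead.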

Additional observations from a re-analysis of the deposited data

Results flagged for a closer look

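For 8 members the siRNA and deletion log2 fold changes differed by the test of that difference (normal reference, Benjamini-Hochberg over 10891 genes), and 13.7% of all genes did so. For the 7 given here, the differences, siRNA minus deletion, were 1.60 for UBE2N (0.14 against -1.46), 1.53 for UBE2A (-0.05 against -1.59) and 1.41 for UBE2W (-0.08 against -1.49). They were 0.97 for UBE2G1 (0.01 against -0.96) and 0.74 for UBE2H (0.01 against -0.73). UBE2M differed by -1.16 (0.10 against 1.26) and UBE2V2 by -1.30 (-1.26 against 0.03), the latter containing the value it was chosen for. UBE2N and UBE2V2, which act as a pair, had differences of opposite sign. The sign for UBE2V2 follows from the value it was chosen for, so nothing about the pair is read from this. None of the 8 calls held with a Student t reference, under which 0 of the 10891 genes were called.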

How the results depend on the processing

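No paired analysis was possible because the deposited tables hold no value per library, and for the same reason leaving out a replicate and the count models were not run. The siRNA count was 1 member under each of the 6 alternatives, but this member is UBE2V2, chosen for that value, so the count says nothing of stability. The 7 members called after deletion became 0 with a Student t reference and 0 with robust scaling. The 8 differences between the arms likewise became 0 and 0. Over all genes, the calls after deletion and the called differences also became 0 under both settings. After siRNA, 5 of all genes were called with the t reference, against 390 in the main test. Partners called after siRNA became 0 with the t reference, and partners called after deletion became 0 with the t reference and 0 with robust scaling. With the GC trend removed, partners called after deletion went from 17 to 12. The 9 siRNA partners kept their count in the other alternatives run. The word of 6 bases was in the 3' UTR of 13 members, against 4 for that of 7 bases, 3 for that of 8 bases, and 5 with any annotated transcript, UBE2V2 being added through a transcript marked for nonsense-mediated decay. With the GC trend removed 5 values changed sign, none of them called. These were deletion values of UBE2L3 (adjusted p-value 0.240), UBE2Q2 (0.621) and UBE2R2 (0.862), and differences of UBE2L3 (0.136) and UBE2Q2 (0.773). The differences of UBE2A, UBE2G1 and UBE2M were then not called (0.106, 0.109 and 0.262), and those of UBE2C, UBE2E3 and UBE2J2 were (0.0465, 0.0161 and 0.0376). Over all genes 1204 differences were then called, against 1493 in the main test. Of 534 member values under alternatives, 488 kept direction and side of the threshold, 36 lost the call and 5 gained it. Most of the 534 belong to results that were not called in the main test and had no call to lose. The 488 therefore say little of the stability of the calls.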
